A study of Mus musculus with 4 samples.

Results

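The loci of 10 mouse genes known as markers of alveolar macrophages (AMs) were examined for binding of SMAD4: Car4, Krt79, Krt19, Cd2, Cd9, Cd69, Plet1, Prune1, Kcnn3 and Flt4. They were taken by name from 20923 protein-coding genes, and the rule for membership is the name alone, although the list was drawn up with earlier results of these data known. A peak was placed at a gene when its summit lay in the gene body or within 50 kb of a transcription start site (TSS) of a curated RefSeq transcript in the mouse build mm10. AMs were obtained by bronchoalveolar lavage and cell sorting from 9-wk-old wild-type C57BL/6J mice, all samples share this genotype, and no treatment is given in the labels. SMAD4 was profiled by HT-ChIPmentation, which immunoprecipitates crosslinked chromatin and uses Tn5 transposase to insert sequencing adapters while the antibody-bound material sits on beads. The series holds 2 SMAD4 libraries, called replicates 1 and 2 here in accession order, and 2 input libraries made without antibody, of which no separate measurement is given here beyond their use as the control in peak calling. The number of animals behind a library and whether the replicates came from separate mice are not given in the sources used here, so the spread between them may be technical.

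SMAD4 is the common partner of the receptor-activated SMAD proteins. After TGFβ or bone morphogenetic protein receptors are activated, these complexes enter the nucleus and bind DNA, usually beside factors that define the cell type, such as PU.1 and C/EBP proteins in macrophages. AMs live in the airspace, where they clear surfactant and inhaled particles, and they need TGFβ and GM-CSF to form and persist. Their markers include genes better known from epithelium, nerve or lymphocytes, such as keratins, an ion channel and T cell surface receptors. Expression was not measured in these libraries, so the labelled cell type could not be checked against RNA, and a peak near a gene does not show that SMAD4 acts on that gene.

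SMAD4 peaks found in both replicates lay at 9 of the 10 marker loci, the exception being Flt4. The locus counts ran from 2 shared regions at Krt19, Cd2, Prune1 and Kcnn3 to 10 at Cd9, and the strongest regions stood downstream of Car4, upstream of Cd2 and downstream of Cd9. Where a peak of replicate 1 and a peak of replicate 2 had 1 bp or more in common, their union is called a shared region. The sequence around 8 summits is printed here as examples, which do not stand for all regions. The windows with an AP-1 string are left out, as are the strongest windows of Krt79, Cd69, Plet1, Prune1 and Kcnn3. Each printed window was picked with a C/EBP, PU.1, ETS or SMAD string, and the strongest of Car4, Cd2, Cd9 and Krt19 are among them. All are from RefSeq GRCm38 (mm10), plus strand, 5′ to 3′, centred on the mean of both summits. Capitals mark TTGCGCAA, TTGCGTAA, TTGCACAA or TTGCATAA (C/EBP), GAGGAAGT (PU.1), CAGGAAGT (an ETS string of the kind ELF5 binds), TGACTCA (AP-1) and GTCTGG or GTCTAGAC (SMAD), on either strand.
Car4, distal downstream (chr11:85003615-85003815, 201 bp): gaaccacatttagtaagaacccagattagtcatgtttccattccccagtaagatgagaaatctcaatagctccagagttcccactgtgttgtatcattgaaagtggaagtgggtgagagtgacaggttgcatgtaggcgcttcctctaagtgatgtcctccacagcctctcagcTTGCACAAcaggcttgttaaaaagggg
Car4, proximal downstream (chr11:84979494-84979694, 201 bp): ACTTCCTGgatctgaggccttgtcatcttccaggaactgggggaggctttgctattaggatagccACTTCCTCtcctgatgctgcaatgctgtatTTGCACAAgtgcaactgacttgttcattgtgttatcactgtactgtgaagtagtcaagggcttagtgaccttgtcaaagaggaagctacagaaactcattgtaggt
Cd2, distal upstream (chr3:101313519-101313639, 121 bp): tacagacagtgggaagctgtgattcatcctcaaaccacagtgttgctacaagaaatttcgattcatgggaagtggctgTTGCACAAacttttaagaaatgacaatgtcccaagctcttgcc
Cd9, upstream (chr6:125509905-125510025, 121 bp): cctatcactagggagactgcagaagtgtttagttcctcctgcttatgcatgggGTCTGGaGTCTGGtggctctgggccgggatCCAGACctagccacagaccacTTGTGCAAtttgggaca
Cd9, distal downstream (chr6:125445561-125445681, 121 bp): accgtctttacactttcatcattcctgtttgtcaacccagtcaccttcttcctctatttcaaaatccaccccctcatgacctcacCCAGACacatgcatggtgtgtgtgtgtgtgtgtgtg
Cd9, intron (chr6:125484839-125484959, 121 bp): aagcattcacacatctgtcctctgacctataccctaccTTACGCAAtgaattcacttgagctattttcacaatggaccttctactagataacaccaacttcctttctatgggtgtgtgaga
Plet1, upstream (chr9:50482856-50482976, 121 bp): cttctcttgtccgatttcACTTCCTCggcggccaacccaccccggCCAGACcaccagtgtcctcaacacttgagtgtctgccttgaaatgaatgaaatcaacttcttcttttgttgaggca
Krt19, upstream (chr11:100149601-100149721, 121 bp): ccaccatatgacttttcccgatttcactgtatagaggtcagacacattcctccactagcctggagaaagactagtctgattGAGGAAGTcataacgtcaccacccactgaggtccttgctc

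The window proximal to Car4 held 3 of these strings, a C/EBP string at its centre with a PU.1 and an ETS string to its left. The window upstream of Cd9 held 3 copies of the SMAD string and 1 C/EBP string. The strongest Cd2 and Car4 windows each carried a C/EBP string and no PU.1, ETS, AP-1 or SMAD string.

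Replicate 1 had 51 peaks at the marker loci and replicate 2 had 59, out of 16369 and 19015 peaks in all. Of these, 42 of 51 peaks in replicate 1 (82.4%, exact 95% binomial interval 69.1 to 91.6) had a partner in replicate 2, against 69.4% of all replicate 1 peaks. In replicate 2, 41 of 59 (69.5%, interval 56.1 to 80.8) had a partner, against 59.2% of all. Both shares lay above those of all peaks, and each interval still held the share of all peaks. Intervals of shares and counts cover counting error only, and neighbouring peaks of a locus are not independent.

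The overlapping peaks formed 40 shared regions, of 10964 in the genome. A region was at the locus of 9 of 10 marker genes, against 39.1% of all protein-coding genes, and 8 of 10 were the nearest gene to at least 1 shared region at any distance, against 21.5%. Of the 40 regions, 25 were nearest to the TSS of a marker and 15 to another TSS. The nearest gene depended on the gene models: with predicted RefSeq transcripts added, 12 regions were nearest to a marker, and Cd2 had none, Cd9 had 2 and Plet1 and Krt19 had 1 each. The median locus of the markers held 3 shared regions, against 0 for all protein-coding genes. As only 1 condition was profiled, no test between conditions exists, and these counts are descriptions.

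**Figure D1:**
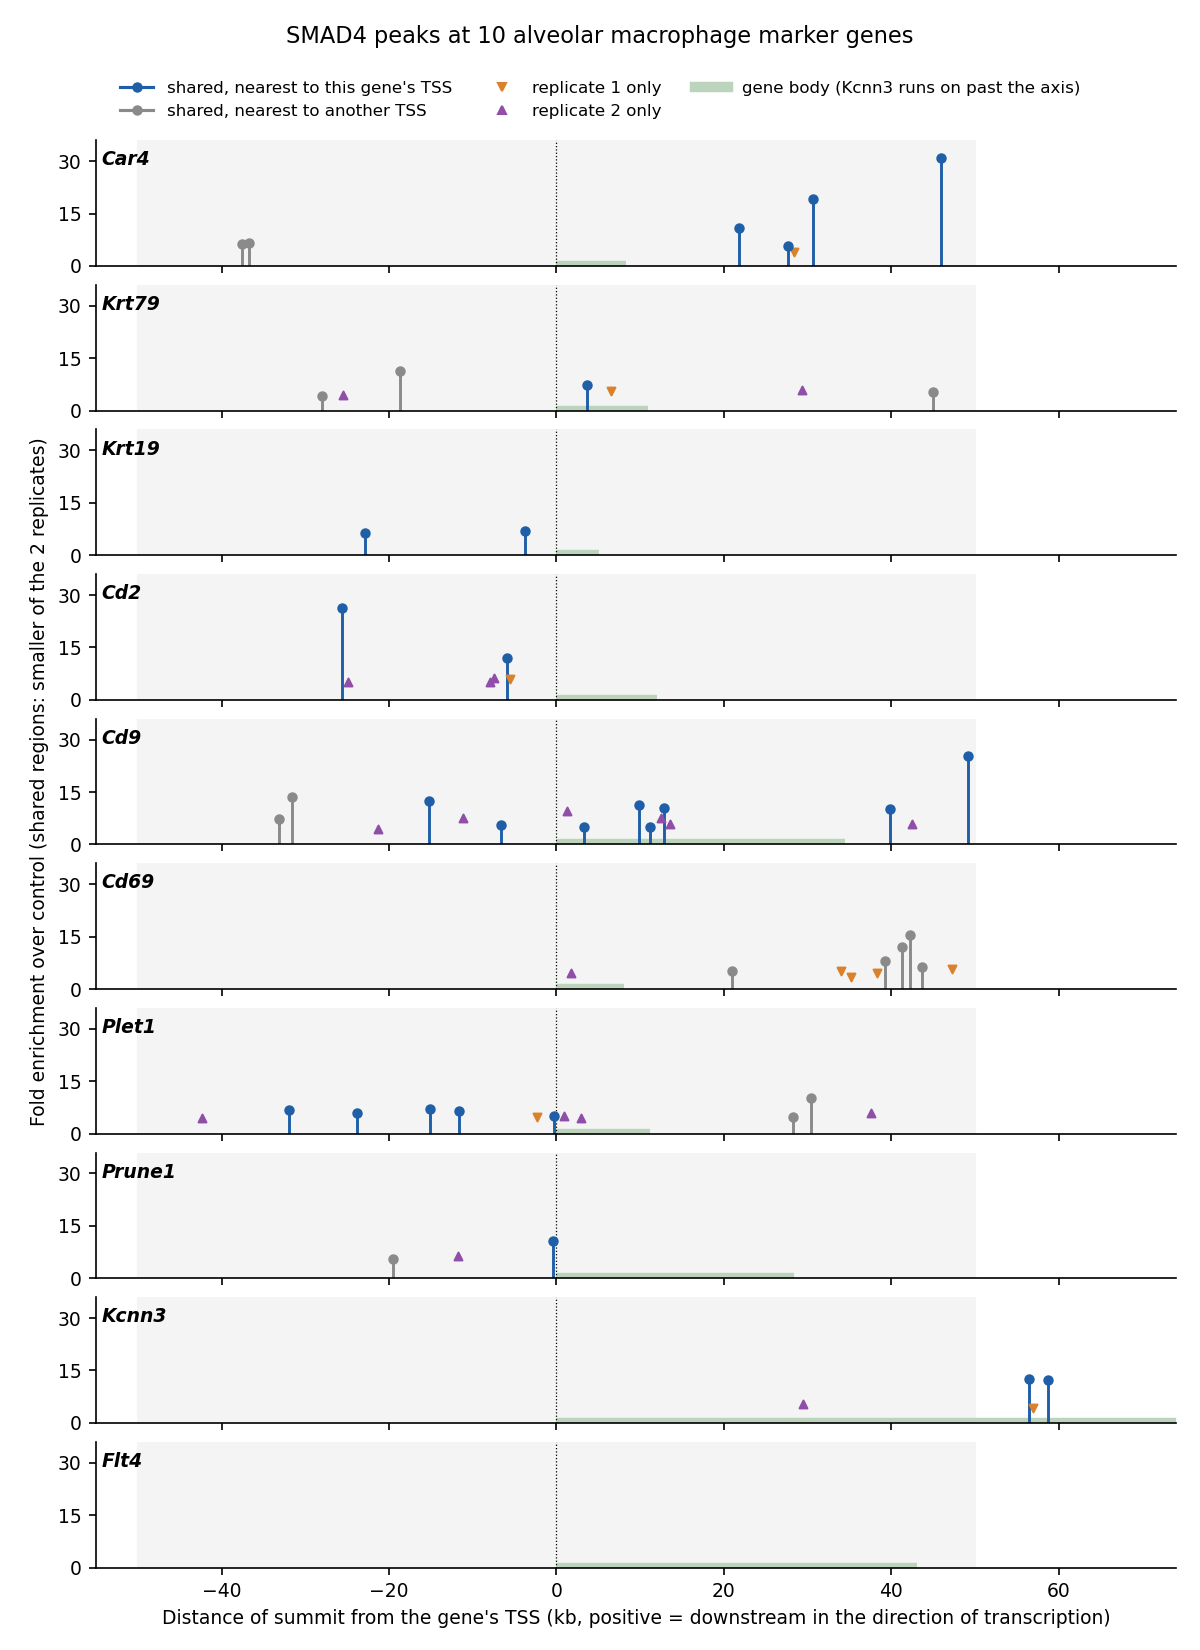
Position and height of SMAD4 peaks at the 10 marker loci, with distance from the gene's TSS in kb on the x axis and fold enrichment over control on the y axis. Blue and grey stems are shared regions nearest to the marker or to another TSS (height, smaller fold of the 2 replicates), triangles are peaks of 1 replicate, and the shaded area is 50 kb each side of the TSS; the tallest stems are those of Car4, Cd2 and Cd9, and Flt4 is empty.

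The list was set beside 2 others. Of 22 other AM identity genes, among them Pparg, Siglecf and Marco, 21 had a shared region at their locus, all but Cpne5, with a median of 3 regions. Of 15 genes of other cell types, mostly of lung and blood but with the hepatocyte gene Alb among them, 5 had one, with a median of 0. These were Scgb1a1 with 5 regions, Pecam1 with 3, Ncr1 with 2, and Alb and Hopx with 1 each. The markers of surfactant-producing epithelium Sftpc and Sftpb, the neutrophil genes Ly6g and Retnlg, and the endothelial gene Cdh5 had no peak in either list. The strongest region of the markers had a median fold (smaller of both replicates) of 12.7 among loci with one, against 15.3 in the other AM list, 7.47 in the other cell types and 7.80 over all genes.

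**Figure D2:**
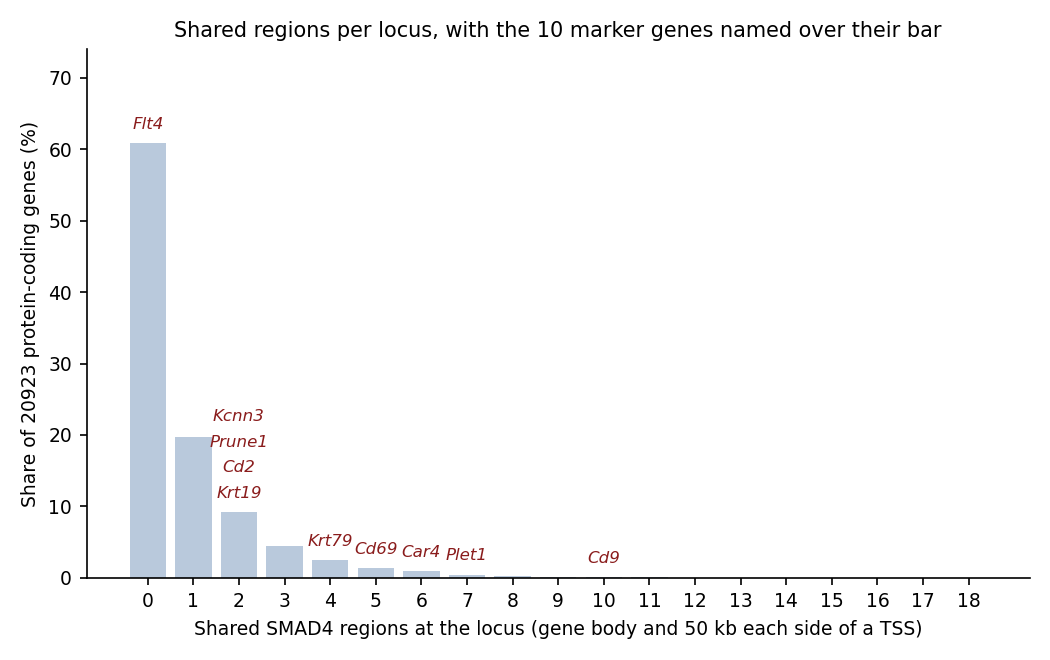
Share of the 20923 protein-coding genes (y axis, percent) by the number of shared SMAD4 regions at their locus (x axis), with each marker named over its bar. Cd9 stands at 10 regions, Plet1 at 7, Car4 at 6, Cd69 at 5 and Krt79 at 4, and 4 markers stand at 2.

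Car4 encodes carbonic anhydrase IV, a membrane-anchored enzyme that interconverts carbon dioxide and bicarbonate (chr11:84957754-84966054). Its locus held 7 peaks in replicate 1 and 6 in replicate 2, which formed 6 shared regions, none of them in the gene body. The 4 nearest to Car4 all lay downstream of the gene, between 21840 and 45961 bp from its TSS. The outermost, chr11:85003276-85004117 in intron 29 of 33 of the neighbouring gene Usp32, was the strongest region of all marker loci by the smaller fold of the 2 replicates, while in replicate 2 the distal Cd2 region was higher. Its fold enrichment was 30.9 in replicate 1 and 42.9 in replicate 2, and its summit stacked 94 fragments in each replicate (exact Poisson 95% interval 76.0 to 115). It ranked 67 of the 10964 shared regions by the smaller fold. Second at the locus was chr11:84987984-84988679, in exon 32 of 34 of Usp32 by its mean summit, with folds of 19.2 and 27.5. Its pileups were 58 and 60 fragments, and its replicate 1 summit lay in intron 32. The region 21840 bp downstream, whose window carries the C/EBP, PU.1 and ETS strings, had folds of 10.7 and 13.0. The remaining own region, in the last exon of Usp32, was weaker (5.85 and 7.22). A pair of regions upstream, 37544 and 36697 bp from the Car4 TSS, lay nearest to Znhit3, with folds of 6.17 and 11.7 for the former and 6.50 and 9.02 for the latter. Of all protein-coding genes, 1.97% had at least as many shared regions at the locus and 0.478% a strongest region at least as high.

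Krt79 and Krt19 encode keratins, the intermediate filament proteins of epithelia. The 4 shared regions of the Krt79 locus (chr15:101929332-101940324) included 1 nearest to it, chr15:101936466-101937041 in intron 2 of 8 of the gene. Its fold was 8.45 in replicate 1 and 7.22 in replicate 2, with pileups of 25 (16.2 to 36.9) and 15 (8.40 to 24.7) fragments. It was 1 of 5 marker regions with the higher fold in replicate 1. The strongest region of the locus lay instead 4717 bp upstream of the keratin gene Krt78, at chr15:101958794-101959554, with folds of 11.4 and 14.9. The other 2 regions were nearest to Krt78 and Krt76, and the weaker of them, with folds of 4.55 and 4.06 and 13 and 8 fragments, had the lowest replicate 2 pileup of any marker region. Krt19 (chr11:100140810-100145926) had 2 regions, both upstream and both nearest to it. The closer one, chr11:100149503-100149837, lay 3735 bp upstream with folds of 6.82 and 11.3 and pileups of 20 (12.2 to 30.9) and 24 (15.4 to 35.7), and its window holds a PU.1 string. The other lay 22914 bp upstream, with folds of 6.50 and 7.22. No Krt19 region was strong, since 24.0% of all protein-coding genes had a region at least as high at their locus.

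Cd2, Cd9 and Cd69 encode surface proteins. CD2 is an adhesion receptor of T and NK cells that binds CD58 or CD48 (chr3:101275908-101287939). Both shared regions of its locus lay upstream and nearest to Cd2. The distal one, chr3:101313123-101314052, stood 25640 bp upstream in intergenic sequence, with folds of 26.3 in replicate 1 and 47.4 in replicate 2. Its 80 (63.4 to 99.6) and 104 (85.0 to 126) fragments included the highest pileup of any marker region, and it ranked 147 of 10964. The nearer one, chr3:101293678-101294195 at 5951 bp upstream, had folds of 12.0 and 19.3 and pileups of 36 and 45. Short peaks of 1 replicate flanked both, 1 in replicate 1 with a fold of 5.85 and 3 in replicate 2 with folds of 4.96 to 6.32. Only 0.965% of all protein-coding genes had a region as strong as that of Cd2, whereas 19.5% had at least as many regions.

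CD9 is a tetraspanin that organises membrane partners and takes part in adhesion and fusion (chr6:125460266-125494760). Its locus was the richest, with 10 peaks in replicate 1, each of which had a partner, 16 in replicate 2 and 10 shared regions. Of all protein-coding genes, 0.292% had at least as many. The gene body held 4 of the regions, all in intron 1 of 7, at 3310 to 12836 bp from the TSS. Their folds were 4.87 and 8.57, 11.4 and 20.3, 4.87 and 9.48, and 10.4 and 17.6 in replicates 1 and 2, going away from the TSS. Upstream of Cd9 and nearest to it were a region at 6663 bp with folds of 5.52 and 6.77 and one at 15205 bp with folds of 12.3 and 18.0. Downstream of the gene, a region 39855 bp from the TSS had folds of 10.1 and 16.7. The strongest, chr6:125445179-125446030, was 49139 bp downstream of the TSS and thus just inside the 50 kb limit. It had folds of 25.3 and 32.9 and pileups of 77 (60.8 to 96.2) and 72 (56.3 to 90.7), and it ranked 172 of 10964. The first peaks outside the limit were 58698 bp from the TSS in replicate 1, with a fold of 4.87, and 58655 bp in replicate 2, with a fold of 10.4. Farther upstream, 2 regions were nearest to Vwf, the gene of von Willebrand factor, with folds of 13.6 and 21.2 and of 7.80 and 7.36. Beyond the shared regions, replicate 2 alone had 6 peaks at the locus. The highest, in intron 1 at 1294 bp from the TSS, had a fold of 9.48 and 20 fragments (12.2 to 30.9), more than any other unshared peak at the marker loci.

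CD69 is a C-type lectin and an early activation antigen of lymphocytes (chr6:129267324-129275369). Its locus held 5 shared regions, and none was nearest to Cd69. All 5 lay downstream, 20964 to 43672 bp from its TSS, and were nearest to the noncoding RNA gene 2310001H17Rik. The strongest, chr6:129232625-129233481 in exon 2 of 3 of that RNA, had folds of 15.6 and 26.6 and pileups of 47 (34.5 to 62.5) and 58 (44.0 to 75.0). When only protein-coding genes were considered, all 5 became nearest to Cd69. Within the Cd69 gene body a single peak was listed, in replicate 2 only, 1728 bp from the TSS with a fold of 4.60 and 10 fragments (4.80 to 18.4). Replicate 1 alone had 4 peaks, 34043 to 47283 bp downstream of the TSS and nearest to 2310001H17Rik, with folds of 3.57 to 5.85.

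**Figure D3:**
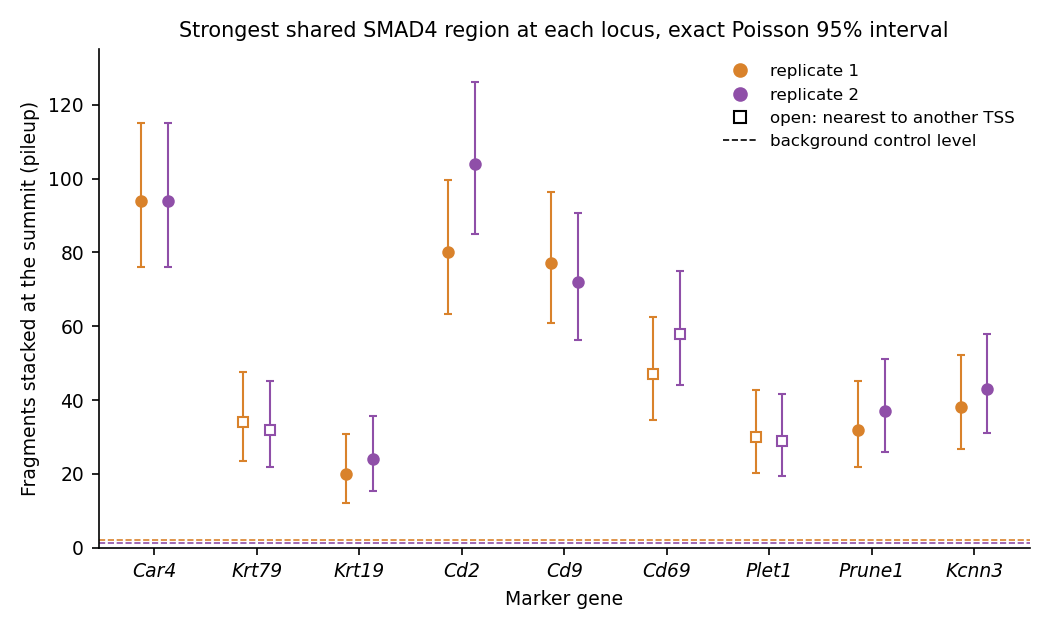
Fragments stacked at the summit (pileup, y axis) of the strongest shared region at each marker locus with one, in replicate 1 (orange) and replicate 2 (purple). Bars are exact Poisson 95% intervals, open squares are regions nearest to another TSS and dashed lines the background control levels; Car4, Cd2 and Cd9 reached 72 to 104 fragments, and Krt19 had 20 and 24.

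Plet1 encodes a GPI-anchored surface protein first known from placenta and epithelial progenitors (chr9:50494525-50505639). Its locus held 7 shared regions, 5 of them nearest to Plet1, spread over 31916 bp upstream of the TSS. All 5 were of modest height, with folds of 5.85 to 7.15 in replicate 1 and 5.02 to 13.1 in replicate 2. One was in the promoter, chr9:50494001-50494275, 335 bp upstream of the TSS, with folds of 6.17 and 5.02 and pileups of 18 and 11. The highest by the smaller fold, chr9:50478964-50480017, had folds of 7.15 and 10.4, with 21 (13.0 to 32.1) and 22 (13.8 to 33.3) fragments. These 2 summits lay 512 bp apart, with their midpoint 15137 bp upstream, so the folds belong to different sites. Beside the replicate 2 summit, replicate 1 had another peak with a fold of only 5.52. The window 11609 bp upstream carries a PU.1 and a SMAD string and had folds of 6.50 and 8.12. By their mean summits, the remaining pair lay in introns 1 and 2 of Pts, a gene of tetrahydrobiopterin synthesis downstream of Plet1. The one in intron 1, chr9:50524336-50525445, was the strongest of the locus (10.1 and 13.5). Its summits lay 525 bp apart, in intron 2 in replicate 1 and in exon 4 of another Pts transcript in replicate 2. Just outside the limit, at 50644 bp upstream, a further shared region nearest to Plet1 had folds of 4.55 and 10.4. Of all protein-coding genes, 1.07% had at least as many regions at the locus, but 13.6% had one as strong.

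Prune1 encodes a phosphatase of the DHH family (chr3:95253674-95282076). Its strongest region, chr3:95281918-95282653, was the other promoter region of the list, with a summit 391 bp upstream of the Prune1 TSS and also in the promoter of the neighbouring gene Mindy1. Folds were 10.7 and 17.1 and pileups 32 (21.9 to 45.2) and 37 (26.1 to 51.0). A second region, in intron 6 of 12 of Anxa9, lay 19506 bp upstream, was nearest to Anxa9 and had folds of 6.17 and 5.41. The peak lists cannot assign the promoter region to 1 of the genes.

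Kcnn3 encodes SK3, a small-conductance potassium channel opened by calcium (chr3:89520164-89672494). Both shared regions of its locus lay in intron 2 of 7, at 56449 and 58756 bp from the TSS, and entered by the gene body and not by the 50 kb limit. Region chr3:89576187-89576841 had folds of 12.7 and 19.9 with 38 (26.9 to 52.2) and 43 (31.1 to 57.9) fragments. Its neighbour chr3:89578635-89579135 was almost as high, with folds of 12.3 and 18.0 and with 37 (26.1 to 51.0) and 39 (27.7 to 53.3) fragments. The intervals of the 2 regions overlapped in both replicates. Between them replicate 1 had a peak with a fold of 4.22, and replicate 2 had one at 29461 bp with a fold of 5.41.

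Flt4 encodes VEGFR3, the receptor of VEGF-C and VEGF-D, best known from lymphatic endothelium (chr11:49609679-49652739). No peak of either list lay at its locus. The closest peaks were 300911 bp upstream of the TSS in replicate 1 and 301139 bp upstream in replicate 2, with folds of 3.57 and 5.87. A list of called peaks gives no value for a locus without one, so binding below the calling limit was not detectable here. Flt4 was among the 60.9% of all protein-coding genes without a shared region at their locus. Some of these genes have peaks in a single list, and the share without any peak is not given here.

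Across the 40 regions, the median fold was 7.96 in replicate 1 and 11.5 in replicate 2, against 6.82 and 9.48 for all shared regions. Replicate 2 had the higher fold at 35 of the 40, as it had at 87.2% of all shared regions. Its background control level was lower (1.22 fragments against 2.08), and 49 of 51 marker summits in replicate 1 and 50 of 59 in replicate 2 were scored against this level (within 0.005 fragments), so the folds of the 2 replicates are not on a common scale and were not compared as binding. The order of the regions was similar in both replicates, with Spearman's rho of 0.876 over the 40 and 0.782 over all 10964, given as descriptions over regions that share 2 libraries. The top 10% of all shared regions began at a smaller fold of 14.3, and 5 of the 40 were above it: a pair at Car4 and 1 each at Cd2, Cd9 and Cd69.

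**Figure D4:**
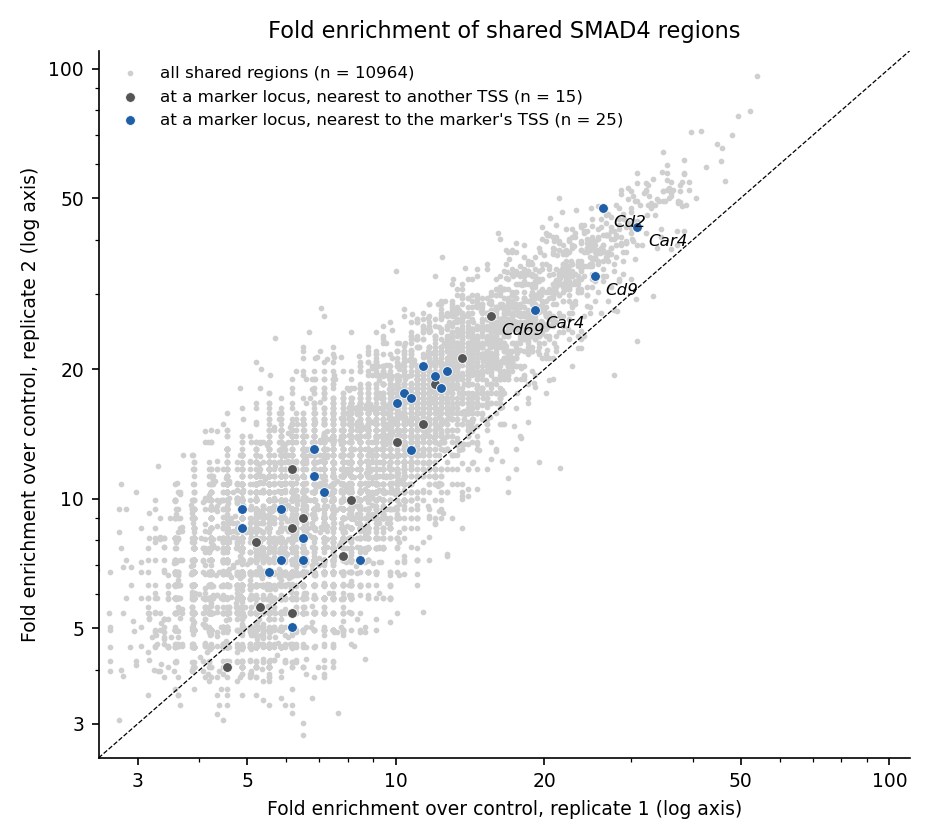
Fold enrichment over control in replicate 1 (x axis, log) and replicate 2 (y axis, log) for all 10964 shared regions (light grey) and the 40 at marker loci, in blue where nearest to the marker (25) and in dark grey where nearest to another TSS (15). Most points lie above the dashed line of equal fold, and the 5 labelled regions have a fold of at least 15.6 in replicate 1.

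The unshared peaks were weak. In replicate 1 there were 9, with folds of 3.57 to 5.85 and 10 to 17 fragments, and in replicate 2 there were 18, with folds of 4.51 to 9.48 and 9 to 20 fragments. Their medians of 4.87 and 5.64 compare with 7.47 and 11.3 for the shared peaks of the same loci. The largest q-value of any marker peak was 0.00732 in replicate 1 and 0.00312 in replicate 2, both under the authors' limit of 0.05.

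By position, 21 of the 40 regions were intergenic (52.5%, against 40.5% of all shared regions), 13 intronic (32.5% against 49.3%), 3 exonic (7.5% against 2.49%), 2 in promoters (5% against 6.42%) and 1 at a transcription termination site (2.5% against 1.30%). These classes are those of the mean summit. The exonic ones lay in exons of Usp32 and 2310001H17Rik and not in those of the markers. The median distance to the marker TSS was 26.6 kb. The mean GC content of the 201-bp windows was 45.5 ± 4.89% (SD, n = 40), against 43.7 ± 6.49% over all shared regions.

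The same windows, 100 bp each side of the mean summit, were searched for 10 consensus strings on both strands. Where the summits of the replicates lay far apart, the window held neither of them. This was so at gaps of 512 and 525 bp at Plet1, 284 bp at Car4 and 215 bp at Prune1. The C/EBP strings were in 6 of the 40 windows (15%, exact 95% interval 5.71 to 29.8), against 14.5% of all shared windows and 1.32% of equally long windows 1 kb to either side. All 6 belonged to regions nearest to a marker: 2 at Car4, 1 at Cd2 and 3 at Cd9. PU.1 was in 4 (10% against 8.0%), at Car4, Krt19, Cd69 and Plet1. The ETS string was in 3 (7.50% against 5.62%), and AP-1 in 3 (7.50% against 8.91%). At least 1 of these strings was in 13 of the 40 windows, and 33.4% of all shared windows held 1.

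The SMAD strings were in 7 windows (17.5%, interval 7.34 to 32.8), against 11.6% of all shared windows and 10.5% of the flanks. Of the 7, 4 were at the Cd9 locus, 2 at Plet1 and 1 at Cd69. Regions nearest to a marker held 4 of the 7, and the rest were nearest to Vwf, Pts and 2310001H17Rik. For factors of other niche signals, TTCNNNGAA (STAT5, a GM-CSF effector) was in 5 windows (12.5% against 8.06%, interval 4.19 to 26.8). GTGGGAA (RBPJ, the Notch effector) was in 4 (10% against 4.14%, interval 2.79 to 23.7). The RBPJ string occurred in the strongest windows of Car4 and Cd2, in the Krt79 intron and in the Plet1 promoter. TGTGGT (RUNX) was in 11 (27.5% against 26.4%, interval 14.6 to 43.9). CACGTG (an E-box) was in 0 of 40, with an exact upper limit of 8.81%, against 3.65%. AGGTCA (a nuclear receptor core site) was in 12 (30% against 15.4%, interval 16.6 to 46.5), 7 of them in regions nearest to a marker. Of the 10 strings searched, only AGGTCA had an interval without the share of all windows, and this difference was not tested. The AGGTCA windows lay at the Car4, Krt79, Krt19, Cd9, Cd69 and Plet1 loci, with more at Cd9 than at any other. Its interval treats neighbouring windows of a locus as independent, which they are not. The RUNX string TGTGGT and the RBPJ string GTGGGAA can overlap. In the Krt79 intron window the GT that ends the RUNX string opens the RBPJ string. A match is a description of the sequence, and a window without one lacks only these letters.

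RefSeq promoter sequences, 250 bp before to 50 bp after the TSS, were at hand for 7 of the 10 genes. The SMAD string was in those of Car4, Cd9 and Prune1, and RBPJ in that of Cd9. RUNX was in that of Krt79 and the nuclear receptor core site in that of Plet1. No share over other promoters is given here, and Car4, Cd9 and Krt79 had no shared SMAD4 region in their promoter. None of the 10 strings was in those of Kcnn3 and Flt4, and C/EBP, PU.1, ETS and AP-1 strings were in none of the 7.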

How the data were processed

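HT-ChIPmentation peak lists of 2 SMAD4 libraries from mouse AMs were analysed, with groups taken from the labels. For these files the authors used Cutadapt for trimming and Bowtie2 for alignment to mm10, dropped duplicates and poorly mapped reads (PICARD, samtools), and ran MACS3 on each library against input, keeping peaks with a q-value under 0.05. The deposited values of a peak are a fold ratio over the control level, a −log10 p-value and a −log10 q-value at the summit, a score of 10 times the latter, which was not used, and the summit offset. These describe peaks and were not tested.

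From them, the pileup and control level at each summit were solved (fold is pileup plus 1 over control plus 1, and p is the Poisson tail). The largest error in −log10 p was 0.00054. Sequencing totals were not used. If the narrowest peaks (120 and 119 bp) give the fragment length, replicate 1 was 1.69 times as deep as replicate 2.

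Gene models were 45657 curated RefSeq transcripts of GRCm38. Promoters ran from 1 kb upstream to 100 bp downstream of a TSS and termination sites from 100 bp upstream to 1 kb downstream of a transcript end. All 10 genes were named, with the strongest region of each by the smaller fold in full. Genes and lists were chosen with earlier results of these data known. In the list of other cell types, 1 gene is not reported here and enters no count of that list. Alternatives were the TSS window, gene models, overlap rule, q and fold limits, string window and each replicate alone. Python 3.11.15, numpy 2.4.6, pandas 2.3.3, scipy 1.17.1, pysam 0.24.0 and matplotlib 3.10.9 were used.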

Additional observations from a re-analysis of the deposited data

How the results depend on the processing

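Of 76 alternative values, 66 stayed within 1.5 times the reported count and 10 did not. A TSS window of 10 kb instead of 50 kb left 17 peaks in replicate 1, 21 in replicate 2 and 12 shared regions, all 12 nearest to a marker. Adding predicted transcripts left 12 regions nearest to a marker. With each replicate taken alone, 32 to 39 peaks were nearest to a marker, as peaks without a partner then count. The C/EBP strings were in 3 windows at 50 bp each side of the summit, and at 200 bp AP-1 was in 5 windows and SMAD in 14. With the summit of a single replicate, AP-1 was in 4 to 5 windows. Shares over all shared windows are given only for 100 bp each side of the mean summit. These string counts are therefore not a result about the markers, since a wider window also holds more strings elsewhere. Marker genes with a shared region numbered 7 to 9 in every alternative, and Flt4 had none in any. The share of all protein-coding genes, 39.1%, is given for the reported rule only. Without that share for the alternatives, these counts are not a result about the markers. Without the gene body, Kcnn3 lost both of its regions. No paired analysis was possible because the labels give the libraries no shared replicate numbers. Unshared peaks rested on 9 to 20 fragments. By the highest peak of each region, the weakest shared regions rested on 13 in replicate 1 and 8 in replicate 2. A smaller replicate 1 peak within the shared Prune1 promoter region rested on 10. Values of such sites have wide counting intervals.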
